A study of Mus musculus with 7 samples.

Results

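The CC chemokines are small secreted proteins that bind G protein-coupled receptors on leukocytes and draw those cells along a gradient. In mammary tumors they are known for bringing in monocytes (Ccl2, Ccl7 and Ccl12, ligands of Ccr2), macrophages and effector lymphocytes (Ccl3, Ccl4 and Ccl5), and regulatory T cells (Ccl22, a ligand of Ccr4). Their levels were described by producing cell for 10 genes, Ccl2, Ccl3, Ccl4, Ccl5, Ccl6, Ccl7, Ccl8, Ccl9, Ccl12 and Ccl22, chosen by symbol among the 20 CC chemokine symbols and 33710 genes of the matrices, and all 10 were found.

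Drop-seq, which captures mRNA of single cells in droplets and counts molecules by UMIs, was run on 7 primary mammary tumors that arose spontaneously in mice labelled MMTV-PyMT; HK2 f/f, in which the mouse mammary tumor virus promoter drives the polyoma middle T oncogene and the hexokinase 2 alleles are floxed. These are the study's control mice: by its methods they were on the C57BL/6 background, received tamoxifen as the deleted mice did and carried no Cre, and the labels give their genotype as wild type. The time point was 3 months after a palpable tumor developed, the tumors were dissociated with collagenase, each mouse gave 1 library, and the labels give no ages. By their titles, replicates 1 to 4 belong to a CB series and replicates 5, 7 and 8 to a WT series, 2 tags that no source used here explains. The libraries of mice with deleted HK2 were not used here.

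Of 37000 barcodes, 15047 had 200 to 6000 genes and were taken as cells, 1133 to 4780 per tumor with 962677 to 4471473 UMIs, and 5 cell barcodes were shared between libraries. The cells fell into 27 clusters, formed without any chemokine or chemokine receptor gene and named by marker lists. The classes held 5214 tumor-like cells, 1704 hormone-sensing luminal-like cells, 1037 fibroblast-like cells, 145 endothelial-like cells, 1901 C1q macrophage-like cells, 503 other myeloid-like cells, 1612 T-like cells and 593 NK-like cells. The lists that named the classes were also summed in them, which describes the classes and is no independent check. The summed level of the fibroblast list was 44430.1 to 58413 CPM in fibroblast-like cells and 23.2 to 746 CPM in C1q macrophage-like cells. That of the C1q macrophage list was 39428 to 58155 CPM in its own class and 574 to 5964 CPM in other myeloid-like cells. The NK-like class carried T cell markers as well, with 520.0 CPM of Cd3e against 504 CPM in T-like cells, beside 335 CPM of Klrb1c against 3.27 CPM, so its markers are not those of NK cells alone. The endothelial-like class also carried pericyte markers (648 to 3243 CPM in sum) and had at least 10 cells in 3 tumors, replicates 4, 5 and 8. In T-like cells the tumor list reached 744 to 16057 CPM, and the part of mixed droplets and free RNA in the levels of any class was not tested.

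Levels are given as CPM, the summed UMIs of a gene over the cells of a class in 1 tumor, scaled to the class's total UMIs, for classes with at least 10 cells in that tumor. Values per tumor follow the order of replicates 1, 2, 3, 4, 5, 7 and 8. CPM of UMIs counts molecules caught at the 3′ end and needs no length correction, but capture can differ between genes, so levels are compared within a gene. Fewer producing cells in a class and less mRNA per cell cannot be told apart in these sums. For comparison, the same gene was measured in barcodes with under 200 genes, called low-gene barcodes. They can hold free RNA but also small or damaged cells, and their make-up was not tested. A level under theirs is therefore not shown to be background.

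**Figure D1:**
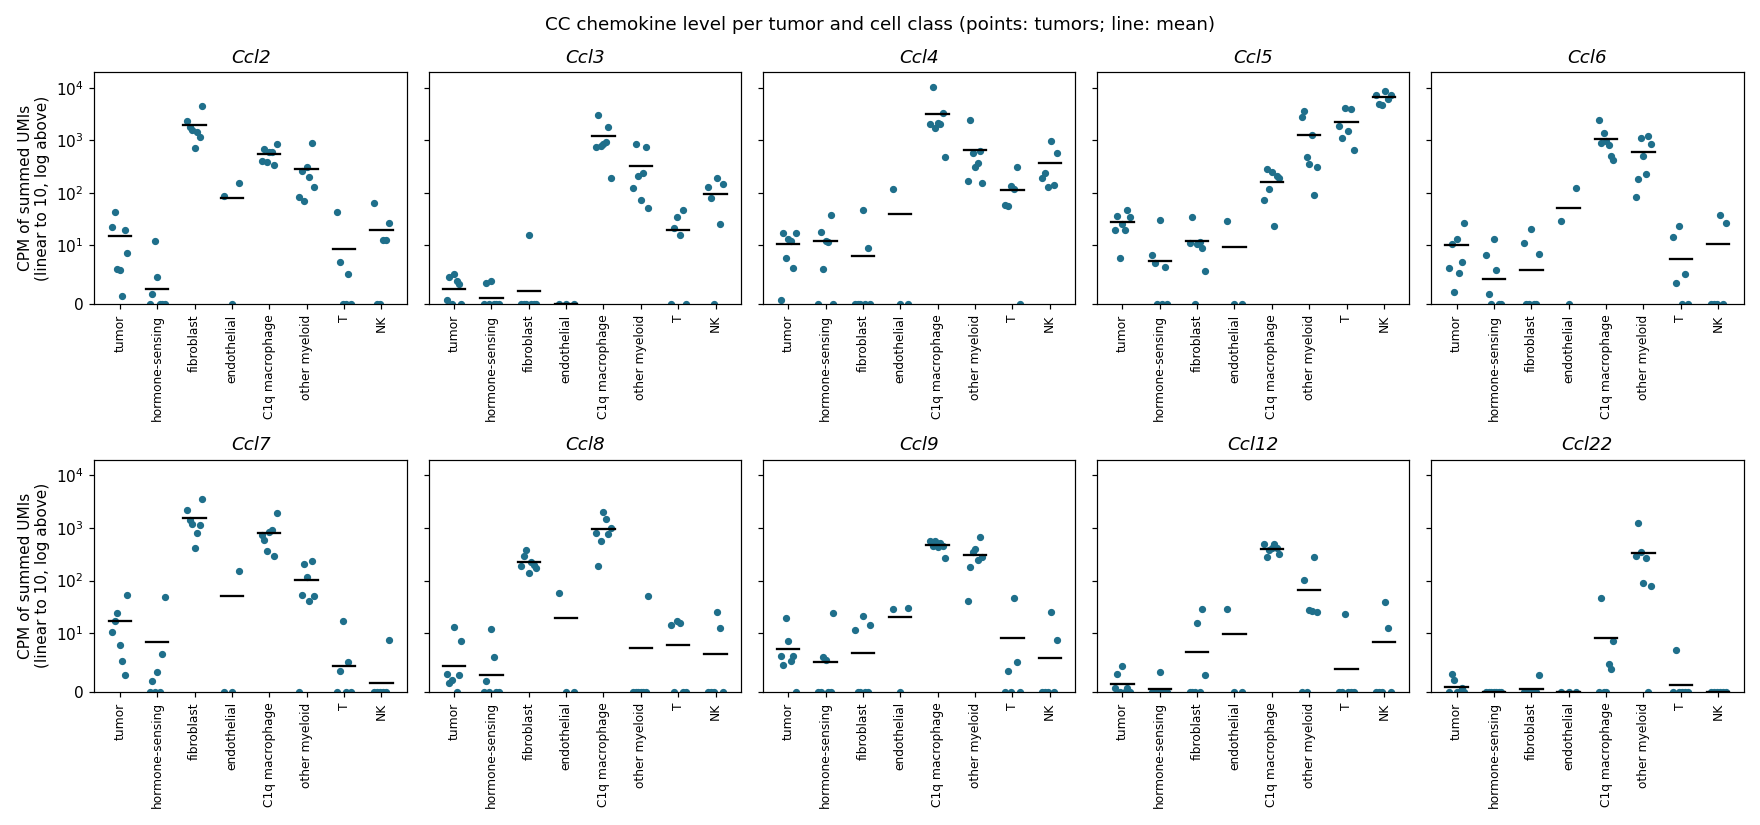
Level of each CC chemokine in each cell class, in CPM on an axis that is linear to 10 and logarithmic above. Each point is 1 tumor (n = 7, fewer where a class had under 10 cells) and each line is the mean. Ccl2 and Ccl7 stand highest in fibroblast-like cells, Ccl5 in NK-like cells, Ccl22 in other myeloid-like cells and the remaining genes in C1q macrophage-like cells.

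9 of the genes lie in 2 groups on chromosome 11 of mm10 (GENCODE vM21, all annotated as protein coding). Ccl2 (chr11:82035571-82037453), Ccl7 (chr11:82045712-82047525), Ccl12 (chr11:82101845-82103400) and Ccl8 (chr11:82115185-82116799) lie within 81.2 kb, all on the plus strand, and are the monocyte chemoattractant genes. Ccl5 (chr11:83525778-83530518), Ccl9 (chr11:83572919-83578636), Ccl6 (chr11:83587882-83593087) and Ccl3 (chr11:83647844-83649355) on the minus strand and Ccl4 (chr11:83662584-83664683) on the plus strand lie within 139 kb. Ccl22 lies apart, at chr8:94745590-94751699 on the plus strand. No exon of another gene in that annotation overlapped an exon of any of them.

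RefSeq promoters (GRCm38.p6) matched 6 of the 10 genes. The 250 bases before the start are shown for neighbouring genes that shared their main cell class, Ccl12 and Ccl8, and Ccl3, Ccl6 and Ccl9, 5′ to 3′ on the gene's strand, with TATAAA in capitals.
Ccl12 promoter, chr11:82101595-82101844, plus strand: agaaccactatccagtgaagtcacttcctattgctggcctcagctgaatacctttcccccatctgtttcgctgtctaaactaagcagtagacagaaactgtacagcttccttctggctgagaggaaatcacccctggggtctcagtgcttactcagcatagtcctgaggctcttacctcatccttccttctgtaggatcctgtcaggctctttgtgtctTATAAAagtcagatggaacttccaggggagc
Ccl8 promoter, chr11:82114935-82115184, plus strand: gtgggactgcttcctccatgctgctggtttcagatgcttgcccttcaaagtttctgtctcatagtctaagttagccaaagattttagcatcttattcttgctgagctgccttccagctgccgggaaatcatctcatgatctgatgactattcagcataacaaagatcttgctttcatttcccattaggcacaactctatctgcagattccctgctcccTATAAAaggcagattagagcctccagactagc
Ccl3 promoter, chr11:83649379-83649628, minus strand: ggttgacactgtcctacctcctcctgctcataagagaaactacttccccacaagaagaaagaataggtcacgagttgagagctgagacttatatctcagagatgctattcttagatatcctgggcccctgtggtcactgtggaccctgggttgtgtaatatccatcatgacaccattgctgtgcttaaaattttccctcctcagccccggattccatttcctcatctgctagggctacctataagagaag
Ccl6 promoter, chr11:83593088-83593337, minus strand: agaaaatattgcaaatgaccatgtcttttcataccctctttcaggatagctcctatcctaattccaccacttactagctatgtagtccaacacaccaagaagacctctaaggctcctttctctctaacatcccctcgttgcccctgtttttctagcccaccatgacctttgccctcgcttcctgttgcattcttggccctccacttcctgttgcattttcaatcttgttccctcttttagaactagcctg
Ccl9 promoter, chr11:83578637-83578886, minus strand: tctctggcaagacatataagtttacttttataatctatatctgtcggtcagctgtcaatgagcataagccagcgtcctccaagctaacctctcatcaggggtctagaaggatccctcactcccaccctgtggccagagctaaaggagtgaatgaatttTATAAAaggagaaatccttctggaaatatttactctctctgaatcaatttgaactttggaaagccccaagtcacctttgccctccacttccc
TATAAA began 31 bases before the start of Ccl12, 32 before that of Ccl8 and 92 before that of Ccl9, and was not found before Ccl3 or Ccl6. RefSeq's start of Ccl3 lies a little upstream of the one in GENCODE. It was present on the gene's strand in 3 of the 6 promoters, against 8.12% of all 27025 promoters of this length. With both strands read it was in the same 3 of 6, against 3504 of 27025. Of 3 other motifs searched on both strands, an NF-κB motif (GGG and CC with any 5 bases between) was in 2 of 6, Ccl9 and Ccl22, against 45.4% of all promoters, and an AP-1 motif (TGANTCA) in 1 of 6, Ccl9, against 6.87%. An interferon element (GAAA, any 2 bases, GAAA) was in 0 of 6, against 3.04%. These are letter matches only.

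The monocyte chemoattractants Ccl2 and Ccl7 had their highest class mean in fibroblast-like cells. Ccl2, the main ligand of Ccr2, measured 2352, 1803, 1536, 714, 1454, 1168 and 4392 CPM in the fibroblast-like cells of the 7 tumors, with a mean of 1917 ± 1204 CPM (SD, n = 7). In C1q macrophage-like cells it measured 409, 674, 395, 609.7, 589, 335 and 858 CPM, lower than in fibroblast-like cells of the same tumor in 7 of 7. Tumor-like cells held 1.33 to 43.3 CPM, which was under the level in low-gene barcodes (70.5 to 578 CPM) in 7 of 7 tumors.

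Ccl7, a second Ccr2 ligand, measured 2216, 1453, 1188, 420.1, 809, 1120.4 and 3513 CPM in fibroblast-like cells and 744, 581, 361, 853, 905, 300.1 and 1925 CPM in C1q macrophage-like cells. The fibroblast-like level was the higher one in 5 of 7 tumors, and replicate 8 had the highest Ccl2 and Ccl7 in both classes. Its low-gene barcodes were highest as well, with 578 CPM of Ccl2 and 586 CPM of Ccl7. Those of the other tumors held at most 138 and 156 CPM. Of the 1133 cells of replicate 8, 402 were fibroblast-like, and the part of free RNA in its levels was not tested. The 12 early-response genes listed with Ccl3 and Ccl4 further on summed to 20877, 19416, 18546, 18935, 17016, 21008 and 8564 CPM in fibroblast-like cells, lowest in replicate 8, and their part was not tested. Without replicate 8 the fibroblast-like means were 1505 CPM for Ccl2 and 1201 CPM for Ccl7. Over the tumors, fibroblast-like cells held 52.0 ± 22.4% (SD, n = 7) of the Ccl2 UMIs found in cells and 48.6 ± 25.4% of those of Ccl7, while C1q macrophage-like cells held 28.0 ± 18.3% and 38.5 ± 24.4%.

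Against tumor-like cells, Ccl2, Ccl7 and Ccl8 were the 3 genes of the 10 with enough UMIs to be tested in fibroblast-like cells, and all 3 were higher, where 23.7% of all genes tested were called higher. With 114, 66 and 31 UMIs in tumor-like cells, they passed the count filter through the fibroblast-like sums, which set their direction. The log2 fold changes were 6.94 ± 0.33 (SE) for Ccl2, 7.01 ± 0.30 (SE) for Ccl7 and 5.75 ± 0.40 (SE) for Ccl8, with adjusted p of 4.0e-14, 6.9e-15 and 2.4e-11 by edgeR's quasi-likelihood test. Each was higher in 7 of 7 tumors. In endothelial-like cells of 3 tumors, Ccl2 and Ccl7, the 2 genes tested, were lower than in fibroblast-like cells by log2 fold changes of -4.94 ± 0.45 (SE) and -5.25 ± 0.46 (SE) (edgeR adjusted p = 2.3e-06 and 1.6e-06), where 23.9% of genes were called lower. Those endothelial-like sums held 8 and 5 UMIs of the 2 genes, under the low-gene barcodes in 3 of 3 tumors. The 2 genes passed the count filter through the fibroblast-like sums, which set their direction.

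The fibroblast-like cells were not uniform. Cluster 12, led by Efemp1, Clec3b and Dpt, held 2504 ± 1657 CPM (SD, n = 7) of Ccl2 and 2107 ± 1329 CPM (SD, n = 7) of Ccl7, and cluster 15, led by Cilp, Mgp and Postn, held 859 ± 937 CPM (SD, n = 7) and 519.7 ± 778 CPM (SD, n = 7). Without replicate 8, the highest, the means of cluster 15 fell to 526 and 235 CPM. Both genes were higher in cluster 12 in 7 of 7 tumors. The same cells tended to carry both: with every cell thinned to 300 UMIs, 60.7% of 262 cells with Ccl7 also had Ccl2, against 17.7% of 684 cells without it, and the first share was higher in 7 of 7 tumors. The thinning left out 91 cells, and without it the shares were 70.9% and 21.3%. These clusters were chosen after their values were seen, so they are described without a test.

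Ccl8, another gene of the monocyte chemoattractant group, had C1q macrophage-like cells as its highest class, at 794, 186, 563, 2021, 1508, 756 and 997 CPM, and fibroblast-like cells as the next, at 193, 298, 377, 142, 223, 197 and 174 CPM. Replicate 2 was the exception, with less Ccl8 in its macrophage-like than in its fibroblast-like cells. Ccl12, a mouse Ccr2 ligand, varied little between tumors, at 496, 279, 378, 416, 507, 417 and 321 CPM in C1q macrophage-like cells. Those cells held 87.5 ± 8.13% (SD, n = 7) of its UMIs, while fibroblast-like cells, the class with the highest mean of Ccl2 and Ccl7, held 0 to 28.9 CPM of it, under the low-gene barcodes in every tumor.

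**Figure D2:**
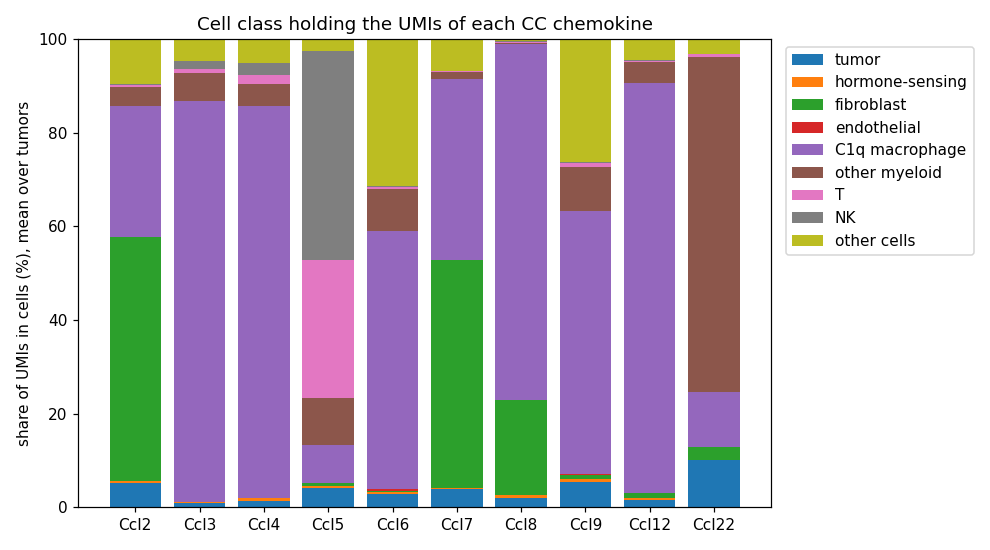
Share of the UMIs of each gene that lay in each cell class, in percent of its UMIs in cells, as the mean over tumors. The shares depend on how many cells of a class were captured. C1q macrophage-like cells hold the largest part for Ccl3, Ccl4, Ccl6, Ccl8, Ccl9 and Ccl12, while cells outside the 8 classes hold 31.4% of Ccl6 and 26.3% of Ccl9.

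The macrophage inflammatory protein genes Ccl3 and Ccl4 were highest in C1q macrophage-like cells. Ccl4 measured 2022, 10406, 1705, 2123, 2025, 3289 and 477 CPM there and Ccl3 732, 2985, 773, 858, 919, 1812 and 191 CPM. Replicate 2 was the highest and replicate 8 the lowest for both genes, and without replicate 2 the means fell from 3149.6 to 1940.3 CPM for Ccl4 and from 1181 to 881 CPM for Ccl3. Other myeloid-like cells had the next highest mean of both genes, with 167, 2426, 561, 307, 363, 629.7 and 155 CPM of Ccl4. Without replicate 2 that mean fell from 658 to 364 CPM, under the 374 ± 339 CPM (SD, n = 6) of NK-like cells. For Ccl4 this place thus rests on replicate 2, and other myeloid-like cells exceeded NK-like cells in 4 of 6 shared tumors. They were above the low-gene barcodes in 4 of 7 tumors for Ccl4 and in 5 of 7 for Ccl3. Each tumor had more of both genes in its macrophage-like cells. Fibroblast-like cells had 3 UMIs of Ccl3 and 11 of Ccl4 in all.

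Early-response genes, which enzymatic dissociation is known to raise, are given beside these values. The 12 early genes (Fos, Jun, Egr1 and others) summed to 9938, 14076, 7945, 9968, 7081, 17439 and 5497 CPM in the C1q macrophage-like cells of the same tumors, and the 10 cytokine and NF-κB feedback genes to 6836, 11172, 5837, 7778, 7689, 9474 and 4933 CPM. Replicate 8, lowest for Ccl3 and Ccl4, was lowest for both sums, and replicates 2 and 7 were the 2 highest for both. Their part in the Ccl3 and Ccl4 levels was not tested. At 300 UMIs per cell, 65.5% of 354 macrophage-like cells with Ccl3 also had Ccl4, against 21.9% of 1411 without it, in the same direction in 7 of 7 tumors.

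Ccl5, a chemoattractant of T cells and monocytes, had a different order. It measured 7399, 4961, 4732, 8677, 6032 and 7356 CPM in the NK-like cells of replicates 1, 2, 3, 4, 5 and 7, and 1840.0, 1124, 4164, 1479, 3923 and 651 CPM in the T-like cells of replicates 1, 2, 4, 5, 7 and 8. A Ccl5 UMI was found in 73.2% of NK-like cells (median 524 UMIs) and 27.2% of T-like cells (median 392.5), or 65.6% and 24.5% at 300 UMIs per cell, against 1.63% of tumor-like cells (median 665). NK-like cells exceeded T-like cells in 5 of 5 tumors that had both, by a log2 fold change of 1.52 ± 0.15 (SE) (edgeR adjusted p = 4.3e-09), where 5.51% of genes were called higher. The difference was 0.72 (adjusted p = 0.0019) with 9 components and resolution 0.6 in the clustering. Ccl4 was the other gene tested there and was higher by 1.52 ± 0.28 (SE) (edgeR adjusted p = 2.1e-04), but its difference was -0.86 (adjusted p = 0.19) when cells were assigned 1 by 1 from markers, so its direction changed with how the 2 classes were drawn. Ccl4 was above the low-gene barcodes in 3 of 6 tumors in NK-like cells and in 0 of 6 in T-like cells. Of 9 cytotoxic genes, 6 were tested and 5 were higher in NK-like cells, among them Gzmb, a granzyme, at 5.15 ± 0.22 (SE). Gzmc, Gzmb and Nkg7 were among the genes that led the NK-like cluster, and Gzma is on the NK marker list. Their being higher was thus partly built in and is no support for the identity of the class.

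Among T-like cells, Ccl5 was concentrated in cluster 18, led by Cd8b1 and Cd8a, at 3543, 4359.6, 11001, 5073 and 6091 CPM in replicates 1, 2, 4, 5 and 7, a range that overlaps that of NK-like cells. In those 5 tumors the mean was 6014 CPM in cluster 18 and 6885 CPM in NK-like cells, which were higher in 4 of 5. The difference from the whole T-like class thus depends on its other clusters. Cluster 4 held 1530.2 ± 879.6 CPM (SD, n = 5) and cluster 20 411 ± 446 CPM (SD, n = 5). Other myeloid-like cells also carried Ccl5, at 2761, 3626, 491, 361, 1276, 92.6 and 310.5 CPM, and there the spread between tumors was wide, with replicates 1 and 2 highest. These levels were above the low-gene barcodes in 5 of 7 tumors, with replicates 4 and 7 under them. A Ccl5 UMI was found in 8.55% of other myeloid-like cells. Such cells held 8.47 UMIs on average and up to 62, so the levels of this class rest on few cells. C1q macrophage-like cells had 74.4, 279, 118, 247, 23.9, 207 and 191 CPM, above the low-gene barcodes (121 to 1351 CPM) in 1 of 7 tumors. They were lower than other myeloid-like cells by a log2 fold change of -2.28 ± 0.59 (SE) (edgeR adjusted p = 0.0073), the 1 gene of the 10 called lower, where 14.9% of genes were. Replicate 7 went the other way, and the call was lost in 1 of 14 alternatives, the 3 tumors of the WT series alone, at -1.66 (adjusted p = 0.41).

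Ccl6 and Ccl9, myeloid chemokines that bind Ccr1, were shared by both myeloid classes. Ccl6 measured 2419, 871, 1377, 978, 804, 495 and 425 CPM in C1q macrophage-like cells and 83.7, 183, 1122, 506, 228, 1222 and 854 CPM in other myeloid-like cells, and was higher in the first class in 5 of 7 tumors. Ccl9 measured 558, 465, 571, 439, 522, 448 and 269 and 41.8, 183, 351, 407, 242, 685 and 285 CPM in the same classes, higher in the first in 5 of 7, and replicates 7 and 8 were the exceptions for both genes. The differences between the classes, 0.81 ± 0.43 (SE) for Ccl6 and 0.59 ± 0.29 (SE) for Ccl9 on the log2 scale, did not pass the test (edgeR adjusted p = 0.17 and 0.13). They did not pass in 12 of 15 alternatives for Ccl6 and 13 of 15 for Ccl9, and passed in the rest. Leaving out 1 tumor brought the edgeR adjusted p down to 0.027 and 0.029.

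Against tumor-like cells, 9 of the 10 genes were tested in C1q macrophage-like cells and all 9 were higher, each in 7 of 7 tumors, with a median log2 fold change of 7.18 against -0.11 over all genes tested, where 24.3% were called higher. Tumor-like sums held few UMIs of most of them, such as 10 of Ccl12, 20 of Ccl3 and 31 of Ccl8. Such genes passed the count filter through the macrophage-like sums, which set their direction. The count of genes called is therefore no support, and the fold changes describe size only. The values ran from 2.77 ± 0.26 (SE) for Ccl5 to 8.88 ± 0.25 (SE) for Ccl3 (edgeR adjusted p = 8.5e-09 and 8.5e-17). For Ccl5 the groups overlapped, at levels under the low-gene barcodes in 6 of 7 tumors. Ccl22, with 7 and 4 UMIs in the 2 classes, had too few counts to be tested. Against other myeloid-like cells, 6 of the 9 genes tested were called higher, where 17% of all genes were. Of these, Ccl8, Ccl12 and Ccl7 had 2, 25 and 36 UMIs in other myeloid-like cells. Those 3 passed the count filter through the macrophage-like sums, which set their direction, so the count of 6 is no support. Ccl8 differed most, by 7.60 ± 0.47 (SE) (adjusted p = 4.9e-09). It rests on 1918 UMIs against 2, a ratio of summed CPM of 237 with an exact binomial 95% interval of 65.5 to 1958 that covers counting error only. Ccl7 (3.00 ± 0.44 (SE)), Ccl12 (2.66 ± 0.44 (SE)), Ccl4 (2.46 ± 0.18 (SE)) and Ccl3 (2.11 ± 0.23 (SE)) followed, with adjusted p of 7.6e-05, 1.9e-04, 3.9e-08 and 2.9e-06. The call for Ccl12 was lost in 1 of 15 alternatives. Of 11 early genes tested there 3 were called higher and 0 lower, and their part was not tested. Ccl2 was at 1.05 ± 0.37 (SE) (adjusted p = 0.039), a call that was lost in 11 of 15 alternatives, among them leaving out any of replicates 1, 2, 3, 4, 5 or 8, and it was at adjusted p = 5.3e-05 without replicate 7 (range over tumors left out up to 0.11).

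**Figure D3:**
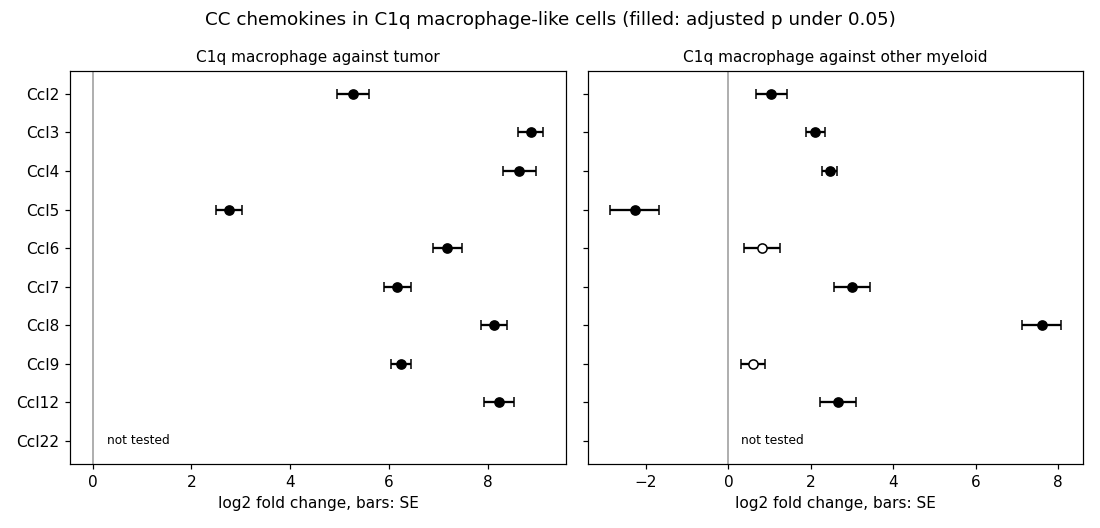
Log2 fold change of each gene in C1q macrophage-like cells against tumor-like cells (left) and against other myeloid-like cells (right), 7 tumors each, with bars for the SE and filled points for an adjusted p under 0.05. All 9 genes tested are to the right of 0 on the left, while on the right Ccl5 is at -2.28 and Ccl6 and Ccl9 are open.

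The macrophage-like class was made of 4 clusters that differed in these genes. Cluster 5, led by H2-M2, Zmynd15, Ms4a7 and Il1b, had the highest mean Ccl3 and Ccl4, with 3725, 16068, 2309, 2741, 2372, 3733 and 415 CPM of Ccl4. In single tumors the order varied, and for each gene cluster 5 exceeded cluster 10 in 5 of 7 tumors. Cluster 21, led by Pf4, F13a1, Mrc1 and Folr2, genes known from resident macrophages, held 3279.9, 7598, 17034, 8904, 8238 and 5027 CPM of Ccl8 in replicates 1, 3, 4, 5, 7 and 8, against 91.5 ± 79.2 CPM (SD, n = 7) in cluster 5, 124 ± 75.6 CPM (SD, n = 7) in cluster 10 and 568 ± 640.0 CPM (SD, n = 5) in cluster 23. None of those other clusters reached the lowest of these values in any tumor.

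The same cluster had the highest macrophage-like means of Ccl7, Ccl2, Ccl6, Ccl9 and Ccl12. Ccl7 was at 3804 ± 1956 CPM (SD, n = 6) and Ccl2 at 1983 ± 788 CPM (SD, n = 6). For Ccl6 the level in cluster 21, 3713 ± 2205 CPM (SD, n = 6), compares with 368 ± 243 CPM (SD, n = 7) in cluster 5. For Ccl9 it was 1449.7 ± 535 CPM (SD, n = 6), where cluster 5 had 333 ± 140.4 CPM (SD, n = 7). Ccl2, Ccl6, Ccl7, Ccl8 and Ccl9 were higher in cluster 21 than in cluster 5 in 6 of 6 tumors, Ccl12 in 5 of 6, and Ccl3 and Ccl4 in 2 of 6. Cluster 21 was also lower in Il1b, the interleukin-1β gene, at 438 CPM against 5121 CPM. As Il1b is among the genes that led cluster 5, this was partly built in. Cluster 21 had 239 cells, 42.7% of them from 1 tumor, and these clusters were chosen after their values were seen.

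In single cells thinned alike, at 300 UMIs per cell, 39.3% of 196 macrophage-like cells with Ccl7 also had Ccl8, against 5.10% of 1569 cells without Ccl7, in the same direction in 7 of 7 tumors. Ccl4 was found in 21.6% of 162 cells with Ccl8 and in 31.3% of 1603 without, higher in the first group in 2 of 6 tumors. Cluster 22, led by Retnla, Ear2 and Lyz1, took no class name under the marker rules, and it had the highest mean Ccl6 of the clusters described here, 6897, 7757, 5594, 2939.7 and 3399 CPM in replicates 1, 3, 4, 5 and 8, above cluster 21 in 3 of 5 tumors, with 1439.5 ± 244 CPM (SD, n = 5) of Ccl9 and 21.5 ± 29.9 CPM (SD, n = 5) of Ccl8.

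**Figure D4:**
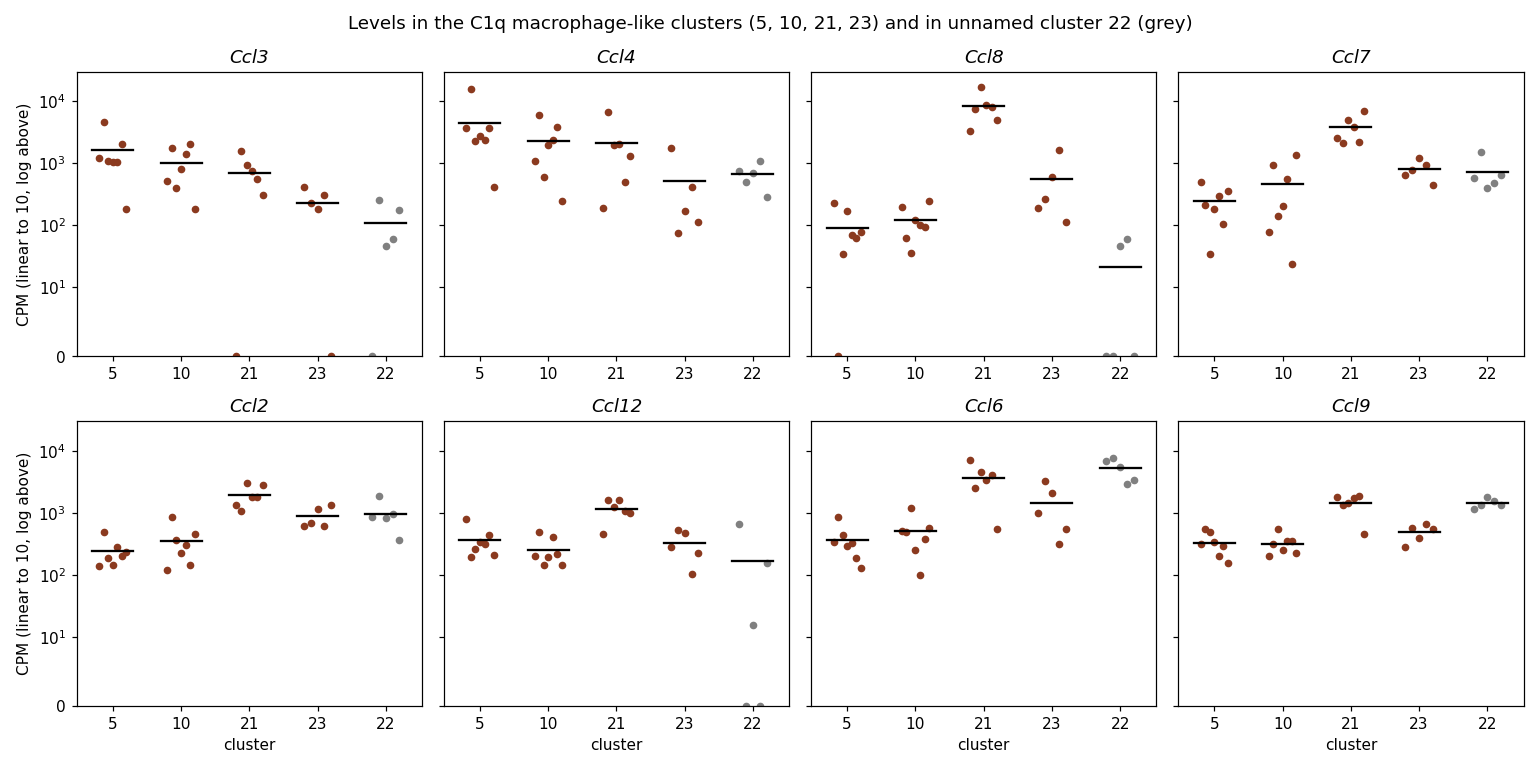
Levels of 8 CC chemokines in the 4 C1q macrophage-like clusters and in unnamed cluster 22 (grey), in CPM on an axis that is linear to 10 and logarithmic above. Points are tumors with at least 10 cells in the cluster and lines are means. Ccl8 runs from 3279.9 to 17034 CPM in cluster 21, Ccl3 and Ccl4 have their highest means in cluster 5, and Ccl6 in cluster 22.

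Ccl22, the Ccr4 ligand, had 110 UMIs in all cells. In other myeloid-like cells it measured 293, 1252, 351, 90.3, 269, 0 and 77.6 CPM, and replicate 2 was the highest and replicate 7 had none. Without replicate 2 the mean fell from 333 to 180.0 CPM, and with cells assigned 1 by 1 from markers it was 145 CPM. Replicate 2 gave 48 of the 93 UMIs of this class. The UMIs came from 36 cells, of which 75.0% also had Ccr7, the receptor of migrating dendritic cells, against 10.1% of the 467 cells without Ccl22. Only 3 tumors had at least 5 cells with Ccl22, all 3 in this direction, and 2 had them at 300 UMIs per cell. Fscn1, a marker of mature dendritic cells, was in 47.2% against 3.43%. Ccl6 went the other way, 2.78% against 19.5%. The cells with Ccl22 were deeper (median 752 against 533 UMIs), and at 300 UMIs per cell the Ccr7 shares were 63.2% of 19 cells and 9.68% of 434, and those of Ccl5 28.6% and 4.86%. The class carried the monocyte and granulocyte list at 1464 to 15279.5 CPM and the dendritic list at 701 to 2008 CPM in sum. It also carried the C1q macrophage list, at 574 to 5964 CPM. With cells assigned 1 by 1 from markers, 134 of its 503 cells kept this class, 18 became C1q macrophage-like and 341 took no class. The part of macrophage-like cells in its levels was not tested.

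Tumor-like and hormone-sensing luminal-like cells had little of any of the 10 genes. In tumor-like cells Ccl5 was at 27.6 ± 13.1 CPM (SD, n = 7) and Ccl22 at 0.80 ± 1.24 CPM (SD, n = 7). For 9 of the genes the tumor-like level was under that of the low-gene barcodes in 7 of 7 tumors, and for Ccl22 in 6 of 7. Single tumor-like cells held up to 13 UMIs of Ccl2, 6 of Ccl4, 5 of Ccl7 and 28 of Ccl5. The part of free RNA and of mixed droplets in these levels was not tested. Ccl5 was not evenly spread over the tumor-like clusters. Cluster 9, led by the interferon-response genes Ifit3, Rsad2 and Ifit1, held 101 of the 201 UMIs, in 23 of its 710 cells, at 101, 19.1, 0, 28.0, 239.8, 241 and 333 CPM, and was under the low-gene barcodes in 6 of 7 tumors. A single cell gave 17 of the 21 UMIs in replicate 1, 11 of 12 in replicate 5, 28 of 56 in replicate 7 and 4 of 4 in replicate 8, so these values rest on few cells. Between the 2 epithelial classes Ccl5 alone was tested, and it was lower in hormone-sensing-like cells by a log2 fold change of -1.04 ± 0.38 (SE) (edgeR adjusted p = 0.039), where 17.2% of genes were called lower. It rests on 51 and 201 UMIs and was lost in 6 of the 11 alternatives that gave a value, leaving out replicate 1, 5, 7 or 8 among them (adjusted p up to 0.11).

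Each gene's 8 class means were also set in order and neighbours compared within tumors by an exact two-sided sign-flip permutation test. The order was taken from the same values, so these tests describe the spread only and are no support for the order. Of 70 neighbour pairs 0 passed after adjustment, and 10 had an unadjusted p under 0.05, the smallest being p = 0.016 by the exact test, which is the smallest that 7 tumors can give (adjusted p = 0.16). An adjusted p under 0.05 would have needed 22 pairs at that value, where 7 were, and 25 pairs had 7 shared tumors and 23 had too few to go under 0.05 at all, so the 0 says little about whether neighbours differ. The 7 pairs at p = 0.016 by the exact test included fibroblast-like over C1q macrophage-like cells for Ccl2 and C1q macrophage-like over other myeloid-like cells for Ccl3, Ccl4, Ccl7 and Ccl12.

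In its highest class no gene passed the comparison of the CB and WT title series by an exact two-sided permutation test with adjustment over the 10 genes, and none had an unadjusted p under 0.05. The smallest p was 0.057 (adjusted 0.57), for Ccl6 in C1q macrophage-like cells, at 1411 ± 706 CPM (SD, n = 4) in the CB series and 575 ± 202 CPM (SD, n = 3) in the WT series. The largest gap on the log2 scale was that of Ccl22 in other myeloid-like cells, 2.46 higher in the CB series, at 497 ± 516 CPM (SD, n = 4) and 115 ± 138 CPM (SD, n = 3), with p = 0.14 by the exact test (adjusted 0.71). That gap includes replicate 2 of the CB series at 1252 CPM and replicate 7 of the WT series at 0 CPM, and was not computed without them. Ccl5 in NK-like cells, with 4 against 2 tumors, could not go below p = 0.067 by the exact test, so its comparison could not have passed. With 4 against 3 tumors the smallest possible p is 0.029, which cannot pass after adjustment over 10 genes unless several genes reach it.

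Over 50 sums of a tumor and class, the genes whose log2 levels followed each member most closely were named by Pearson's r among 8087 genes, as a description, since sums of 1 tumor share a library and each class enters with several tumors. For Ccl2 they were Ccl7 (r = 0.90), Zeb2 (r = 0.88) and Ifi207 (r = 0.88), and for Ccl7 Ccl2 (r = 0.90), Igf1 (r = 0.89) and Axl (r = 0.86). For Ccl3 they were Ccl4 (r = 0.94), Lilr4b (r = 0.92) and Ncf1 (r = 0.91), and for Ccl4 Ccl3 (r = 0.94), Slamf7 (r = 0.90) and Tyrobp (r = 0.90). For Ccl5 they were Rac2 (r = 0.92), Hcst (r = 0.91) and Selplg (r = 0.90). For Ccl6 they were Fcgr2b (r = 0.97), Cybb (r = 0.96) and Lyz2 (r = 0.95), and for Ccl9 Ccl6 (r = 0.95), Nlrp3 (r = 0.95) and Cybb (r = 0.95). For Ccl8 they were Vcam1 (r = 0.85), Lpl (r = 0.85) and Olfml3 (r = 0.85), and for Ccl12 Clec5a (r = 0.92), Trem2 (r = 0.92) and C1qb (r = 0.91). Ccl22 had too few UMIs.

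The other CC chemokines were sparse. Of 14 listed, 10 were in the matrices and 1 was tested in any comparison. That was Ccl11, the eotaxin gene, at 329 ± 109 CPM (SD, n = 7) in fibroblast-like cells and without a UMI in tumor-like cells, at least 496-fold higher by the exact binomial 95% interval, which covers counting error only (edgeR adjusted p = 5.9e-13). It passed the count filter through the fibroblast-like sums, which set its direction, and 23.7% of genes were called higher there. Ccl21a, a Ccr7 ligand of lymphatic endothelium, was at 896 ± 1346 CPM (SD, n = 3) in endothelial-like cells, nearly all of it in replicate 4, and without that tumor the mean was 122 CPM. Ccl17, the other Ccr4 ligand, was at 283 ± 322 CPM (SD, n = 7) in other myeloid-like cells, the class of Ccl22, and at 175 CPM without replicate 8.

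Of the 14 receptors and decoys, 13 were in the matrices. Among those tested in C1q macrophage-like against tumor-like cells, Ccr1 was higher at 6.28 ± 0.40 (SE), Ccr2 at 6.73 ± 0.36 (SE) and the atypical receptor Ccrl2 at 4.45 ± 0.22 (SE) on the log2 scale (edgeR adjusted p = 8.7e-12, 3.9e-13 and 9.1e-14). There, 24.3% of all genes were called higher. A gene with almost no UMIs in 1 class can pass the count filter only through the other, which sets its direction. These calls are therefore no support. Against other myeloid-like cells, Ccr2 and Ccr7 were lower, at -1.22 ± 0.27 (SE) and -6.58 ± 0.36 (SE) (edgeR adjusted p = 0.0028 and 2.0e-09), and Ccr1 at 0.28 ± 0.29 (SE) and Ccrl2 at 0.47 ± 0.28 (SE) did not pass the test (adjusted p = 0.51 and 0.23). In that comparison 14.9% of genes were called lower, and the same limit of the count filter can hold for Ccr7. Receptor mRNA for Ccl2 and Ccl7 was measured at 600.1 ± 356 CPM (SD, n = 7) of Ccr2 in other myeloid-like cells and 228 ± 99.2 CPM (SD, n = 7) in C1q macrophage-like cells, and at 1.16 ± 2.09 CPM (SD, n = 7) in fibroblast-like cells, the class with the highest mean of the 2 ligands. Ccr4, the receptor of Ccl22, was found in T-like cells at 9.91 ± 8.22 CPM (SD, n = 6), on 9 UMIs.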

How the data were processed

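Drop-seq libraries of 7 control tumors were analysed. Per the study's methods, the authors used a mouse reference (mm10) extended by PyMT, and deposited counts of UMIs per gene and barcode, whole numbers without normalization. The submitters' processing notes name STAR, FastQC and the human builds GRCh37.p13 and hg19, while the gene symbols are those of mouse. Mitochondrial genes, present in 2 matrices, were dropped. Cells (200 to 6000 genes) were clustered with Seurat 5.3.0 in R 4.3.3 (log normalization to 10000, variable genes with mean 0.1 to 8 and dispersion over 1 without chemokine genes, UMI number regressed out, 20 components, 30 neighbours, resolution 2). A cluster took the best scoring marker list if its score (log2 of each marker's CPM + 5 relative to the median of clusters, averaged) was at least 1, at least 3 markers were in 10% of its cells and no other list led its 10 leading genes. This naming rule was set after the clusters were seen. No doublet caller was run, and the 6000-gene maximum and an alternative without the 5% of cells with most UMIs stand in for one. UMIs were summed per mouse and class (at least 10 cells) and tested with edgeR 4.0.16 (TMM, filterByExpr, quasi-likelihood test, mouse as block, Benjamini-Hochberg over all genes, threshold 0.05). A gene with almost no UMIs in 1 class can pass that count filter only through the other class, which sets its direction. The SE is the fold change over the root of F. Mice pair the classes because both come from the same animal. Levels and permutation tests used log2(CPM + 10) in Python 3.11.15 and scipy 1.17.1. Alternatives included DESeq2 1.42.0, other clusterings, a per-cell marker rule and leaving out each tumor. On simulated counts for C1q macrophage-like against tumor-like cells (5300 genes), 81 of 82 genes changed 4-fold and 36 of 91 changed 2-fold were recovered. For endothelial-like against fibroblast-like cells, 78 of 87 and 16 of 84 were. The counts were drawn from 1 pooled profile with a fixed dispersion and no difference between mice. They do not cover the spread between real tumors. Named genes were the 10 members, fixed lists of CC chemokines, receptors, cytokines, early and cytotoxic genes, and the 3 genes most like each member. The values of 1 listed receptor are not reported here. The members and lists were chosen with earlier results of these data known. Clusters and pairs of genes in single cells were chosen after their values were seen.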

Additional observations from a re-analysis of the deposited data

Results flagged for a closer look

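Groups of 6 or 7 tumors with a mean of at least 100 CPM were searched for a tumor that stands far from the rest, by the gap to its nearest neighbour over the range of the group. Of 24 groups, 5 held such a tumor, 3 of them the same one. The limit used flags about 1 in 20 groups of independent, normally distributed values, which these levels need not be, so no excess over chance is read from the count. In other myeloid-like cells, Ccl2 was at 908 CPM in replicate 7, above the next tumor at 316 CPM. In C1q macrophage-like cells, Ccl4 was at 10406 CPM in replicate 2, above the next tumor at 3289 CPM. In other myeloid-like cells, Ccl4 was at 2426 CPM in replicate 2, above the next tumor at 629.7 CPM. In C1q macrophage-like cells, Ccl7 was at 1925 CPM in replicate 8, above the next tumor at 905 CPM. The low-gene barcodes of replicate 8 held 586 CPM of Ccl7, against at most 156 CPM in the other tumors. In other myeloid-like cells, Ccl22 was at 1252 CPM in replicate 2, above the next tumor at 351 CPM. Replicate 2 was the highest for Ccl4 in both myeloid classes and for Ccl22. Without the tumor named, the means fell from 281 to 177 CPM for Ccl2 and from 658 to 364 CPM for Ccl4 in other myeloid-like cells, and from 809.8 to 624 CPM for Ccl7 in C1q macrophage-like cells.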

How the results depend on the processing

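Of 400 alternative values of the 10 genes' fold changes, 371 kept their direction and side of the threshold, 22 lost the call, 5 gained it and 2 reversed: Ccl4 in NK-like against T-like cells (-0.86 under the per-cell marker rule) and Ccl6 in C1q macrophage-like against other myeloid-like cells (-0.13 in the WT series alone). The number of genes called without a filter on low counts was 5026 in place of 2604 for C1q macrophage-like against tumor-like cells, 724 in place of 415 against other myeloid-like cells, 4665 in place of 1950 for fibroblast-like against tumor-like cells and 858 in place of 433 for endothelial-like against fibroblast-like cells, with more genes tested. In the WT series alone, with 3 tumors, the first 2 counts were 1587 and 150, and that of hormone-sensing-like against tumor-like cells was 486 in place of 2184. Under the per-cell marker rule the counts were 158 for the 2 myeloid classes, 97 for NK-like against T-like cells and 1367 for the epithelial classes, which gave 1224 without the 5% of cells with most UMIs. The cause was not tested. NK-like against T-like cells gave 220 genes, 108 with DESeq2, 101 with at least 500 genes per cell and 109 in the CB series alone. Tumors were paired by mouse, and without the replicate block that count was 63 and Ccl4 (adjusted p = 0.17), Ccl2 between myeloid classes (0.11) and Ccl5 between epithelial classes (0.15) lost their calls. Leaving out 1 tumor gave 128 to 285 genes for NK-like against T-like cells (128 without replicate 2 and 132 without replicate 4) and 1366 to 2333 for the epithelial classes (1366 without replicate 4). Levels moved by more than 1 SD with at least 500 genes per cell for Ccl5 in NK-like cells (4805 CPM) and for Ccl6 and Ccl9 in C1q macrophage-like cells (1825 and 611 CPM), and for Ccl12 there with 9 components (302 CPM) or as a mean over cells (489.6 CPM). With 9 components and resolution 0.6, or at least 500 genes per cell, no cluster was named other myeloid, so that class gave no value, and the CB series alone gave none for endothelial-like cells. Leaving out single tumors for the levels was chosen after seeing the data. With medians of 527 to 694 UMIs per cell, absence of a UMI in a cell is not absence of the mRNA.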

Other observations

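Of the 10 cytokine and NF-κB feedback genes, 8 were tested in C1q macrophage-like against tumor-like cells and all 8 were higher, where 24.3% of all genes were, with Il1b, the interleukin-1β gene, at 8.90 ± 0.30 (SE) and Il1a at 7.84 ± 0.33 (SE) on the log2 scale (edgeR adjusted p = 2.8e-16 and 8.1e-15). In fibroblast-like against tumor-like cells 5 were tested and all 5 were higher, where 23.7% of all genes were, led by Il6 at 9.23 ± 0.32 (SE) (adjusted p = 1.5e-16). As for the chemokines, genes with almost no UMIs in tumor-like cells can pass the count filter only through the other class, so these counts are no support. In C1q macrophage-like against other myeloid-like cells 5 were tested, 2 higher and 2 lower, where 17% and 14.9% of all genes were. The feedback genes Tnfaip3 and Nfkbiz were higher at 1.10 ± 0.32 (SE) and 0.97 ± 0.19 (SE), Il12b, a dendritic cell cytokine, and Nfkbia were lower at -3.00 ± 0.49 (SE) and -0.59 ± 0.16 (SE), and Il1b was not called (edgeR adjusted p = 0.014, 0.0011, 1.8e-04, 0.011 and 0.99). Of the 12 early genes in C1q macrophage-like against tumor-like cells, 2 were higher and 8 lower, where 24.3% and 26.7% of all genes were, with Dusp1 at 0.95 ± 0.14 (SE) and Fos at -0.98 ± 0.17 (SE). Against other myeloid-like cells 11 were tested, 3 higher (Hspa1a, Egr1 and Atf3) and 0 lower, where 17% and 14.9% of all genes were. In fibroblast-like against tumor-like cells 4 of 11 were higher and 1 lower, where 23.7% and 22.1% were. In NK-like against T-like cells 0 of 11 were higher and 7 lower (5.51% and 7.67% of all genes), in endothelial-like against fibroblast-like cells 0 of 11 and 4 (14% and 23.9%), and in hormone-sensing-like against tumor-like cells 1 of 12 and 5 (16% and 17.2%). Their part in the chemokine differences was not tested.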
